A study of Mus musculus with 15 samples.

Results

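The MYC and MAX network is a set of transcription factors that pair through a shared basic helix-loop-helix leucine zipper domain. The 9 factors described here, of 55536 genes counted in the study, are Myc, Mycn, Max, Mxd1, Mxd3, Mxd4, Mxi1, Mnt and Mlx. They were chosen by name as members of this network, with earlier results of these data known. Their levels were followed in 15 libraries of mouse OT-I CD8+ T cells, whose transgenic receptor recognises an ovalbumin peptide, in 3 groups of 5. The Naive group was made of OT-I cells taken directly from their own mice, without transfer. Ag libraries came from OT-I cells moved into C57BL/6J recipients that received the SIINFEKL peptide with a control rat IgG. Ag+Costim libraries came from recipients of the same peptide with agonist antibodies to OX40 (CD134) and 4-1BB (CD137), which are costimulatory receptors of the TNF receptor family. Per the study's methods, the OT-I donors were deficient for Rag1 or Rag2, so that their T cells carried the transgenic receptor, and transferred cells were sorted from spleen and lymph nodes by CD8, a CD45 marker and the receptor chains. The labels give day 4 as the time of collection, and the methods give a slightly earlier time.

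MYC and MYCN bind DNA as dimers with MAX, mostly at the E-box CACGTG, and raise transcription of genes for ribosome assembly, nucleotide synthesis and nutrient uptake. The MXD proteins (MXD1, MXD3, MXD4 and MXI1) and MNT compete for MAX at the same sites and recruit the SIN3 corepressor, while MLX pairs with MNT, with some MXD proteins and with the glucose-sensing MondoA family. In T cells, Myc is induced within hours of antigen recognition, is needed for growth and metabolic change before division, and returns to lower levels afterwards, whereas MXD1 and MXD4 are known from cells that have stopped dividing.

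The promoter windows of the members, from 250 bases before to 50 bases after the annotated start in RefSeq on GRCm38.p6, were searched for the letters CACGTG, which read the same on both strands. Of the 9 members, 8 had a window in the table and Myc had none. The E-box was found in 4 of the 10 windows of these 8 genes, and in 7.15% of 32851 windows of all genes. The stretches that hold it are shown because this is the site to which the network's own proteins bind, with the E-box in capitals and the coding strand of each gene read 5′ to 3′.
Max (chr12:76962246-76962291, minus strand): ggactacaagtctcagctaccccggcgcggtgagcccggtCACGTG
Mxd4 (chr5:34187910-34187960, minus strand): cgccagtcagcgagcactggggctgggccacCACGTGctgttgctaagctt
Mnt (chr11:74830761-74830820, plus strand): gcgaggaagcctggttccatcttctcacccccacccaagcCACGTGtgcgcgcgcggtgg
Mlx (chr11:101087210-101087269, plus strand): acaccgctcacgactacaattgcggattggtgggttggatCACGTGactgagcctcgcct
The E-box began 3 bases before the start of Max, 219 before that of Mxd4, 123 before that of Mnt and 40 before that of Mlx. These 4 genes did not share a direction of change in the comparisons below, and occupancy of these sites was not measured.

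Total counts per library ranged from 4865952 to 25280667. Lane 2 of the sequencer carried the Ag group together with Ag+Costim 1 to 3, while lane 3 carried Ag+Costim 4 and 5 beside the Naive group, so no lane held both Ag and Naive. Levels of genes are given as CPM, counts scaled by the library total. The 8 markers of CD8 T cells (Cd3d, Cd3e, Cd3g, Cd8a, Cd8b1, Cd2, Thy1 and Trac) were detected in every library and summed to between 4135 and 8891 CPM. Some libraries stood apart. In Ag 3 16.9% of the sequenced reads were counted, and its 7 erythroid markers summed to 1243 CPM against 4.19 to 169 CPM in the other libraries. The B cell marker Cd79a was at 32.2 CPM in Ag 1, at 100.5 CPM in Ag 3 and at 43.1 CPM in Ag 4, and it did not exceed 4.92 CPM in any other library. The summed level of 8 myeloid markers was 1023 CPM in Naive 5 and at most 198 CPM elsewhere. In Naive 5 S100a8 was at 429 CPM, S100a9 at 403 CPM and Lyz2 at 122 CPM, each the highest of any library. The other markers, Csf1r, Cd68, Itgam, Adgre1 and Fcer1g, were not highest in Naive 5. Ag 2 and Ag 5 were made from a recorded input amount of 1.4 and 1.8, with no unit given, against 7 or more for the rest. The summed level of 15 cycling genes (Mki67, Top2a and others) was 7839 to 9710 CPM in Ag+Costim. It was 7885 and 7858 CPM in Ag 2 and Ag 5, 6053 CPM in Ag 3 and 1598 and 1542 CPM in Ag 1 and Ag 4. In Naive it was 737 to 1052 CPM in replicates 1, 3 and 4, 2796 CPM in Naive 2 and 6459 CPM in Naive 5. Pairs of libraries were compared over genes by chi-square per degree of freedom, which is lower for more alike libraries and grows with depth. For Naive 5 it was 32.6 to 64.4 against Ag+Costim libraries and 82.6 to 181 against the other Naive libraries. For Ag 1 it was 8.7 against Ag 4, 50.4 to 77.0 against Naive 1 to 4 and 101 to 219 against Ag 2, 3 and 5. The study describes the libraries of a group as biological replicates, and the labels do not tie them to animals. As bulk measurements, the values below cannot tell fewer cells with a transcript from less of it per cell.

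All 9 members passed the filter on low counts. Against Naive, Ag libraries held less Myc, the activator of the network, and no other member passed the test (1 of 9 lower and 0 higher, against 3.66% lower and 3.05% higher among all genes tested). Between Ag+Costim and Ag no member passed the test (0 of 9, against 0.0288% higher and 0.00576% lower among all genes), which called 6 genes in all. Against Naive, Ag+Costim libraries held more Mxd3 and less Myc, Mxd1, Mxi1 and Mnt (1 of 9 higher against 21.0% of all genes, and 4 of 9 lower against 23.6%). Calls are at a false discovery rate (FDR) under 0.05 by edgeR's quasi-likelihood test, adjusted over all 17366 genes tested. At an unadjusted p under 0.05, 4, 3 and 7 of the 9 members passed in the same order of comparisons, as did 4980, 4647 and 9672 of all 17366 genes. Counts of calls depended on the tool: DESeq2 called 4, 2 and 6 members, and limma voom with sample quality weights called 6, 5 and 9. Over all genes, DESeq2 called 2609, 5554 and 9350 of 48768, and limma voom called 4020, 11195 and 13525 of 17366. The 48768 are all genes to which DESeq2 gave a p-value, without the filter on low counts. DESeq2 can leave low-count genes without an adjusted p, so shares of 48768 are not comparable with shares of the 17366 filtered genes. Calls of single members by DESeq2 and limma voom, given below, are to be read against these all-gene counts with that limit. With library totals alone as the scaling, the all-gene median in Ag+Costim vs Naive moved by -0.15 (log2) and the calls over all genes from 3648 higher and 4107 lower to 3016 and 5102, while the member counts stayed at 1 higher and 4 lower. With the lane as a term no member was called in any comparison, and over all 17366 genes that fit called 0, 0 and 943. The Naive libraries are shared by 2 of the 3 comparisons and the Ag and Ag+Costim libraries each by 2, so the comparisons are not independent of each other.

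**Figure D1:**
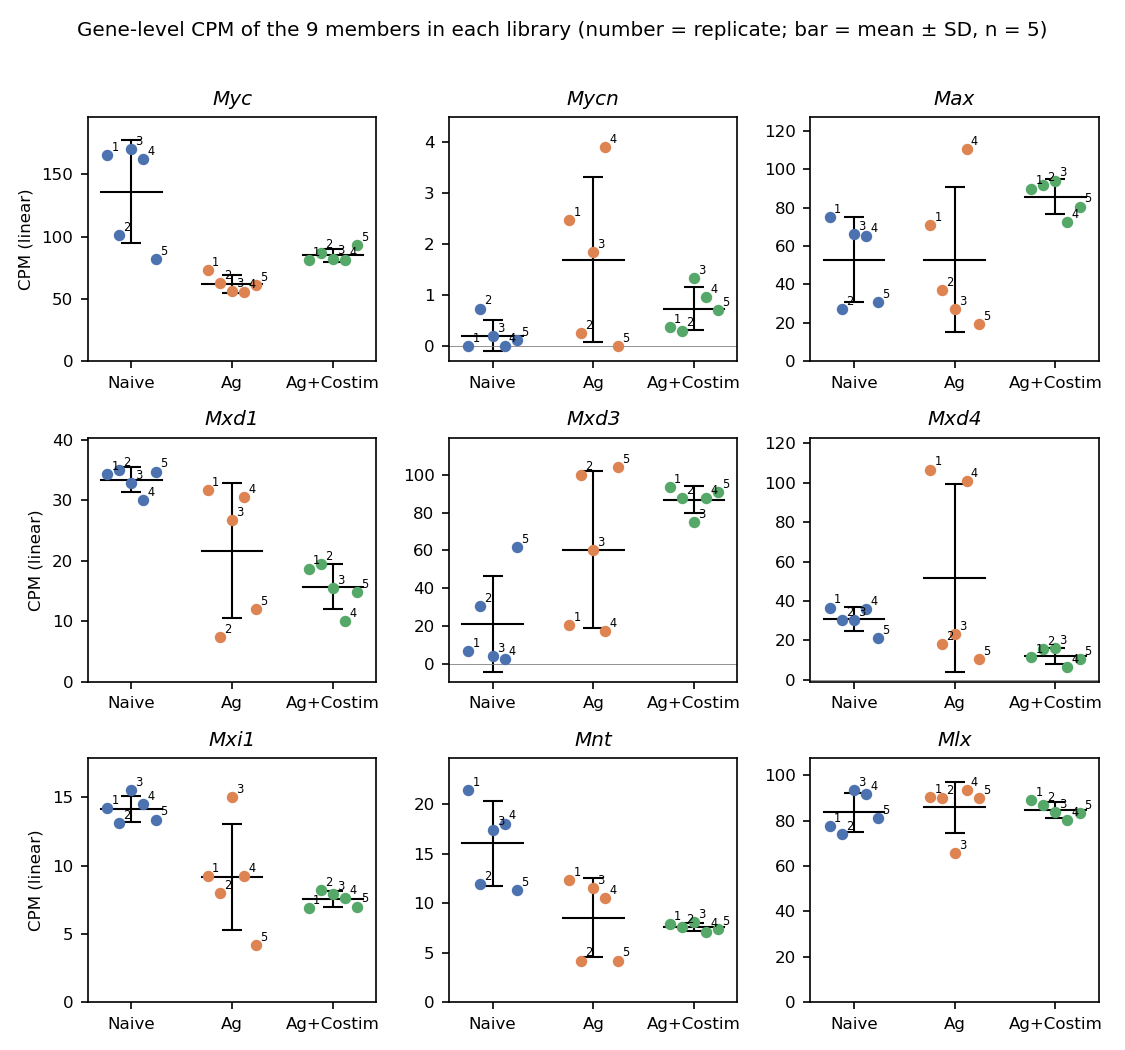
CPM of each of the 9 members (vertical axes, linear, each panel with its own scale) in Naive, Ag and Ag+Costim libraries; each point is 1 library with its replicate number, and the bars give the mean and SD of 5 libraries. Myc in Ag lies between 55.6 and 73.4 CPM, under every Naive and Ag+Costim library, while the Ag libraries run from 19.2 to 110 CPM in Max, from 17.5 to 104 CPM in Mxd3 and from 10.4 to 107 CPM in Mxd4.

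Myc (ENSMUSG00000022346.15, chromosome 15, 61985391 to 61990374 on GRCm38, plus strand) encodes the activator after which the network is named. Its level was 166, 101, 170, 162 and 82.1 CPM in Naive 1 to 5. It was 73.4, 62.5, 56.3, 55.6 and 60.8 CPM in Ag 1 to 5. It was 81.3, 87.1, 82.3, 81.4 and 93.3 CPM in Ag+Costim 1 to 5. All Ag libraries lay below all Naive and all Ag+Costim libraries, and Naive 5 lay among the Ag+Costim values. Such a gap was seen for 2.26% of all genes downward in Ag against Naive, where Myc was the only member with one and none had one upward (1.36% of all genes), and for 4.84% of all genes upward in Ag+Costim against Ag, again with Myc alone among the members and none downward (2.20% of all genes).

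Mean Myc was highest in Naive, at 136 ± 41.3 CPM (SD, n = 5), followed by Ag+Costim with 85.1 ± 5.21 CPM and Ag with 61.7 ± 7.14 CPM. The log2 fold change was -1.04 for Ag vs Naive (SE 0.17, edgeR FDR 0.00781). Naive 5 and Naive 2, the Naive libraries with the most cycling gene transcripts, also had the least Myc, and the log2 fold change was -1.15 (edgeR FDR 0.000493) without Naive 5. With the lane as a term it was -0.95 with an FDR of 0.609, in a fit that called 0 of all genes here. With only the 10 libraries of these groups no member passed, and 6 of 16742 genes did. Since no lane held both groups, lane and group cannot be told apart directly.

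For Ag+Costim vs Ag the log2 fold change of Myc was 0.52 (SE 0.17, 95% interval 0.16 to 0.88, edgeR FDR 0.0903), which did not pass the threshold over all genes. It was 0.50 within lane 2 alone (edgeR FDR 0.628, with 0 calls among all genes there). The FDR of Myc was 0.0493 without Ag 2 and 0.0459 without Ag 5, the libraries of low input, and DESeq2 also called it higher. Over all genes, 2679 of 18092 were called without Ag 2 and 3573 of 18108 without Ag 5. For Ag+Costim vs Naive the log2 fold change was -0.52 (SE 0.17, edgeR FDR 0.0264), and within lane 3 it was -0.47 (edgeR FDR 0.240). That call was lost when any of Ag+Costim 1 to 4 or Naive 1, 3 or 4 was left out, with FDR values of 0.0503 to 0.131. It was also lost (edgeR FDR 0.0536) when library totals were taken over all matched genes and not over the genes that passed the filter, an alternative chosen after the data were seen.

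Mycn (ENSMUSG00000037169.15, chromosome 12, 12936093 to 12941914, minus strand) encodes the MYC paralog best known from neural and progenitor cells. Its counts were 0, 9, 5, 0 and 2 in Naive 1 to 5. They were 26, 4, 9, 51 and 0 in Ag 1 to 5. They were 6, 4, 20, 16 and 11 in Ag+Costim 1 to 5. The 0 counts allow a level of up to 0.206 CPM in Naive 1, 0.229 CPM in Naive 4 and 0.167 CPM in Ag 5, from 3 counts of each total and for counting error only. The highest values, 3.90, 2.48 and 1.85 CPM, were in Ag 4, Ag 1 and Ag 3. These are the libraries with the highest sums of the 8 B cell markers, 1541, 1384 and 1190 CPM, against 472 to 1101 CPM elsewhere. The part of B cells in the Mycn counts was not tested. No comparison of Mycn passed by edgeR (FDR 0.113, 0.533 and 0.158 in the order Ag vs Naive, Ag+Costim vs Ag and Ag+Costim vs Naive). The log2 fold change for Ag vs Naive was 2.96 (95% interval 0.53 to 5.39), and DESeq2 called it higher (FDR 0.0468). Limma voom called Mycn in all 3 comparisons, lower between Ag+Costim and Ag and higher in the others (FDR 0.00808, 0.0100 and 0.0217 in the same order).

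Max (ENSMUSG00000059436.13, chromosome 12, 76937269 to 76962201, minus strand) encodes the partner that MYC, MXD and MNT proteins share. Its level was 74.9, 27.2, 66.1, 65.4 and 30.9 CPM in Naive 1 to 5. It was 70.8, 37.1, 27.3, 110 and 19.2 CPM in Ag 1 to 5. It was 89.9, 91.5, 94.0, 72.4 and 80.6 CPM in Ag+Costim 1 to 5. Ag+Costim libraries were close together and high, while the Ag libraries ran from below every Naive library to above every Ag+Costim library. For Ag vs Naive Max differed by 0.05 on the log2 scale (SE 0.37, edgeR FDR 0.941). Between the transferred groups, Ag+Costim vs Ag, it was 0.81 (95% interval 0.01 to 1.61, edgeR FDR 0.185). The comparison of Ag+Costim with Naive gave 0.86 (95% interval 0.06 to 1.66, edgeR FDR 0.0725), and neither passed. Max was called higher in Ag+Costim vs Naive with only the 10 libraries of these groups (edgeR FDR 0.0205) and by limma voom (FDR 0.00617).

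Mlx (ENSMUSG00000017801.15, chromosome 11, 101087277 to 101092207, plus strand) encodes the MAX-like protein that links the network to the MondoA branch. It varied least of the members, between 65.8 CPM in Ag 3 and 93.3 CPM, and was 83.5 ± 8.49 CPM (SD, n = 5) in Naive, 85.8 ± 11.3 CPM with Ag and 84.6 ± 3.33 CPM with Ag+Costim. Its log2 fold changes were 0.14 for Ag vs Naive (95% interval -0.09 to 0.36), 0.03 for Ag+Costim vs Ag (-0.19 to 0.26) and 0.17 for Ag+Costim vs Naive (-0.06 to 0.40), so differences beyond these bounds are outside the intervals. None passed by edgeR, and in Ag+Costim vs Naive Mlx was called higher without both Ag 3 and Naive 5 (edgeR FDR 0.0452) and by limma voom (FDR 0.00927). The exons of Mlx overlap those of Psmc3ip on the opposite strand by 385 bases, 19.3% of its exon length, and the kit did not mark strand, so reads of that stretch cannot be assigned to either gene. Psmc3ip was at 5.28 to 36.3 CPM.

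Mxd3 (ENSMUSG00000021485.14, chromosome 13, 55325168 to 55329823, minus strand) encodes the MXD family member known from proliferating cells in S phase. Its level was 6.66, 30.5, 4.27, 2.59 and 61.6 CPM in Naive 1 to 5. It was 20.4, 100, 60.2, 17.5 and 104 CPM in Ag 1 to 5. It was 93.4, 87.8, 75.2, 87.7 and 90.7 CPM in Ag+Costim 1 to 5. Every Ag+Costim library was above every Naive library, a gap that 18.3% of all genes showed upward and that Mxd3 alone showed among the members, while Ag 2 and Ag 5 were above every Ag+Costim library and Ag 1 and Ag 4 fell among the Naive values.

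The log2 fold change of Mxd3 was 2.15 for Ag+Costim vs Naive (SE 0.79, edgeR FDR 0.0411), and no other member was called higher there by this fit. It was 2.23 within lane 3 alone (edgeR FDR 0.125). The call was lost when any library other than Naive 5 was left out (edgeR FDR 0.0550 to 0.0925) and was kept without Naive 5, where the log2 fold change was 3.17 (FDR 0.00516). For Ag vs Naive it was 1.64 (SE 0.78, FDR 0.180), and 2.66 (FDR 0.0261) without Naive 5. For Ag+Costim vs Ag it was 0.51 (95% interval -1.11 to 2.13, FDR 0.683).

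Across the 15 libraries, Mxd3 followed the cycling genes closely. The Pearson correlation of its log2(CPM + 1) with the summed level of the 15 cycling genes was 0.98 over 15 libraries, and the genes most like it were Stmn1, a microtubule regulator (0.999), Nusap1, a spindle protein (0.997), and Birc5, which encodes survivin (0.997). Birc5 is itself one of the 15 cycling genes. Taken within groups, as deviations from group means, the correlations with these 3 genes were 0.998, 0.995 and 0.996. These are descriptions: the libraries share lanes, groups and the scaling to library totals. The exons of Mxd3 overlap those of Prelid1 on the opposite strand by 105 bases (4.43% of its exon length), and Prelid1 was at 238 to 714 CPM.

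**Figure D2:**
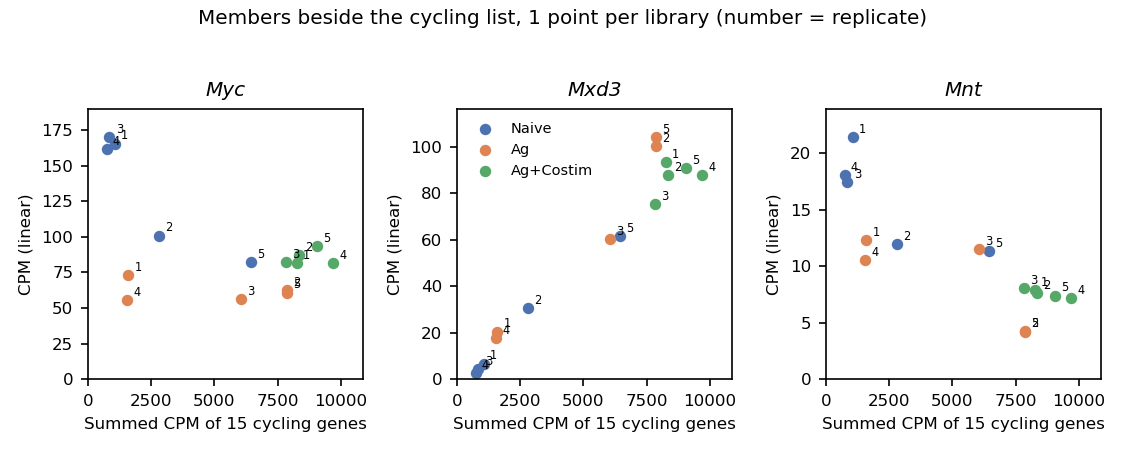
CPM of Myc, Mxd3 and Mnt (vertical axes, linear) against the summed CPM of 15 cycling genes (horizontal axis) in each of 15 libraries, coloured by group and numbered by replicate. Mxd3 lies near a single rising line through all 3 groups, from 2.59 CPM in Naive 4 to 104 CPM in Ag 5, whereas Myc in the Ag libraries is low at both ends of the cycling range.

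Mxd4 (ENSMUSG00000037235.13, chromosome 5, 34173883 to 34187720, minus strand) encodes an MXD repressor known from resting and differentiated cells. Its level was 36.7, 30.3, 30.5, 35.7 and 21.0 CPM in Naive 1 to 5. It was 107, 18.0, 23.0, 101 and 10.4 CPM in Ag 1 to 5. It was 11.5, 15.8, 16.0, 6.61 and 10.4 CPM in Ag+Costim 1 to 5. The Ag libraries fell apart, with Ag 1 and Ag 4 above every Naive library and Ag 2 and Ag 5 within or next to the Ag+Costim values.

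The largest fold change of any member between Ag+Costim and Ag was that of Mxd4, at -1.96 on the log2 scale (SE 0.51), and with an edgeR FDR of 0.0807 it did not pass. It was -1.69 within lane 2. The FDR was 0.0310 without Ag 2, 0.0196 without Ag 5 and 0.155 and 0.116 without Ag 1 or Ag 4, and DESeq2 and limma voom called it lower. For Ag+Costim vs Naive all 5 Ag+Costim libraries lay below all Naive libraries, the log2 fold change was -1.20 (SE 0.50, edgeR FDR 0.0621), and it was -1.69 (FDR 0.0198) within lane 3. For Ag vs Naive it was 0.76 (95% interval -0.30 to 1.81). In Ag 1 and Ag 4, where Mxd4 was highest, the summed cycling genes were lowest of the Ag libraries and the 8 B cell markers summed to 1384 and 1541 CPM, against 572 to 1190 CPM in the other Ag libraries. In Ag 3, with the highest Cd79a of any library, Mxd4 was at 23.0 CPM.

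Mxd1 (ENSMUSG00000001156.9, chromosome 6, 86647042 to 86669161, minus strand) encodes the founding MXD repressor, induced as many cells leave the cycle. Its level was 34.3, 35.0, 32.8, 30.0 and 34.7 CPM in Naive 1 to 5. It was 31.6, 7.46, 26.7, 30.5 and 12.0 CPM in Ag 1 to 5. It was 18.7, 19.5, 15.4, 10.1 and 14.9 CPM in Ag+Costim 1 to 5. Naive libraries were tightly grouped, Naive 5 included, and all Ag+Costim libraries were below them. For Ag+Costim vs Naive the value was -0.94 (log2) (SE 0.30, edgeR FDR 0.0243), and -1.26 (FDR 0.0198) within lane 3. Leaving out Ag+Costim 4, Ag+Costim 5 or Naive 1 ended the call (edgeR FDR 0.0789, 0.0514 and 0.0531). For Ag vs Naive it was -0.58 (FDR 0.208), with Ag 2 and Ag 5 far below the other Ag libraries.

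Mxi1 (ENSMUSG00000025025.14, chromosome 19, 53310518 to 53375810, plus strand) encodes the MAX interactor MXI1. Its level was 14.2, 13.1, 15.5, 14.5 and 13.4 CPM in Naive 1 to 5. It was 9.26, 7.98, 15, 9.26 and 4.22 CPM in Ag 1 to 5. It was 6.91, 8.23, 7.95, 7.64 and 7.01 CPM in Ag+Costim 1 to 5. The Naive and Ag+Costim libraries were separate groups of values, and Ag 3 was at the Naive level. The log2 fold change for Ag+Costim vs Naive was -0.75 (SE 0.23, edgeR FDR 0.0199), -0.78 (FDR 0.0265) within lane 3, and it passed without each library in turn (FDR 0.0226 to 0.0472). For Ag vs Naive it was -0.56 (FDR 0.128), and without Ag 3 it was -0.83 (FDR 0.0162).

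Mnt (ENSMUSG00000000282.12, chromosome 11, 74830920 to 74845725, plus strand) encodes the broadly expressed MAX partner that opposes MYC. Its level was 21.4, 12.0, 17.4, 18.1 and 11.3 CPM in Naive 1 to 5. It was 12.3, 4.22, 11.5, 10.6 and 4.22 CPM in Ag 1 to 5. It was 7.92, 7.61, 8.08, 7.15 and 7.41 CPM in Ag+Costim 1 to 5. Ag+Costim libraries lay within 0.931 CPM of each other and below all Naive libraries. The log2 fold change for Ag+Costim vs Naive was -0.91 (SE 0.27, edgeR FDR 0.0183), and -0.97 (FDR 0.0388) within lane 3. It did not pass without Ag+Costim 4 (FDR 0.0511) or without Naive 1 (FDR 0.0549). For Ag vs Naive it was -0.85 (SE 0.27, FDR 0.0683), and it passed without Ag 1, Ag 3 or Naive 5 (FDR 0.0459, 0.0442 and 0.0317). Of the 9 members, Mxd1, Mxd4, Mxi1 and Mnt had a gap downward between Ag+Costim and Naive, as did 27.3% of all genes.

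**Figure D3:**
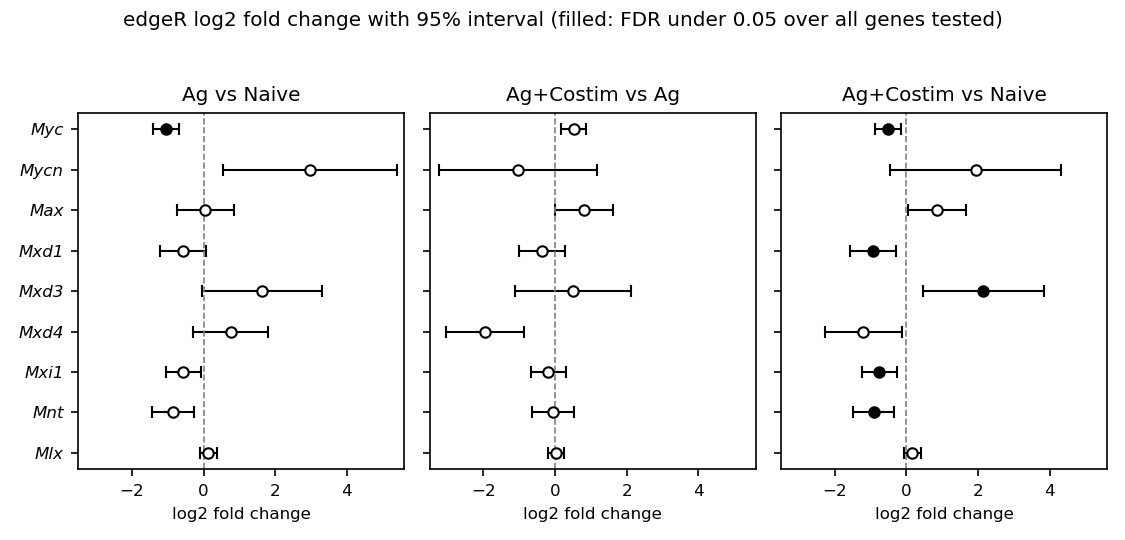
Log2 fold change from edgeR's quasi-likelihood fit (horizontal axes) of the 9 members in 3 comparisons, with 95% intervals; filled points passed an FDR of 0.05 over all 17366 genes tested. Only Myc is filled in Ag vs Naive, no member is filled in Ag+Costim vs Ag, and 5 members are filled in Ag+Costim vs Naive, of which Mxd3 alone is to the right of 0.

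To compare members with each other, levels were taken per length as TPM, computed from transcript counts and annotated lengths and scaled to the same sum in each library. In Naive libraries Myc was at 60.6 to 129 TPM, Mlx at 56.7 to 81.2 TPM and Max at 23.5 to 70.8 TPM. By TPM, Myc was the most abundant member in Naive 1 to 4, and Mxd3, at 72.1 TPM, in Naive 5. The rank of Mxd3 in Naive 5 did not hold as gene counts per kb of exon union. There Mxd3 was at most 57.9 in Naive, while Myc was at least 67.3 and Mlx at least 75.1 in every Naive library. Mxd3 in Ag+Costim libraries, at 86.7 to 106 TPM, was above Max (59.0 to 78.1 TPM), Mlx (64.9 to 71.2 TPM) and Myc (57.8 to 67.9 TPM) in every library. The order of Mxd3 and Mlx depended on the measure: as gene counts per kb of exon union, Mlx was at 90.4 to 98.7 and Mxd3 at 70.8 to 87.4, with Mlx higher in every Ag+Costim library, and Mxd3 was again above Max and Myc. Mxd1, Mxd4, Mxi1 and Mnt were lower than Myc, Max and Mlx, with at most 14.0 TPM each in Naive and at most 6.88 TPM each in Ag+Costim. The lowest of these in Ag+Costim by TPM was Mnt, whose median was 2.56 TPM. As gene counts per kb of exon union it was Mxi1, with a median of 2.52 against 3.02 for Mxd4 and 3.69 for Mnt. Mxd1, Mxd4, Mxi1 and Mnt were not all below Mxd3 in Naive, where the median was 7.64 TPM for Mxd3 and 12.6 TPM for Mxd1. In Ag, Mxd4 ran from 3.59 to 39.5 TPM, while Mxd1, Mxi1 and Mnt were at most 11.7 TPM.

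Of the summed TPM of the 9 members, Myc made up 35.1% ± 7.39 (SD, n = 5) in Naive, 17.1% ± 2.54 with Ag and 19.6% ± 1.27 with Ag+Costim. The MXD and MNT transcripts together made up 23.5% ± 11.9 in Naive, 39.2% ± 9.10 with Ag and 36.7% ± 1.65 with Ag+Costim. The ratio of Myc to the summed MXD and MNT transcripts, on the TPM scale, was 2.34, 1.04, 2.76, 2.85 and 0.572 in Naive 1 to 5. It was 0.628, 0.341, 0.448, 0.504 and 0.346 in Ag 1 to 5 and 0.475, 0.517, 0.585, 0.543 and 0.562 in Ag+Costim 1 to 5. All transferred libraries were below Naive 1 to 4, and Naive 5 lay among them. These shares are transcript shares, are given with no test, and say nothing of protein.

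The makeup of the repressor side differed more than its sum. Mxd3 made up 6.15% to 15.1% of the MXD and MNT transcripts in Naive 1, 3 and 4, 48.0% in Naive 2 and 68.0% in Naive 5. In Ag it was 26.9%, 88.4%, 70.4%, 24.3% and 90.4% in replicates 1 to 5. In Ag+Costim it was 81.5% to 88.2%. The ratio of Myc to Max ran from 1.68 to 3.06 in Naive, from 0.426 to 2.68 in Ag and from 0.779 to 1.06 in Ag+Costim, so that all Ag+Costim libraries had a lower ratio than all Naive libraries.

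**Figure D4:**
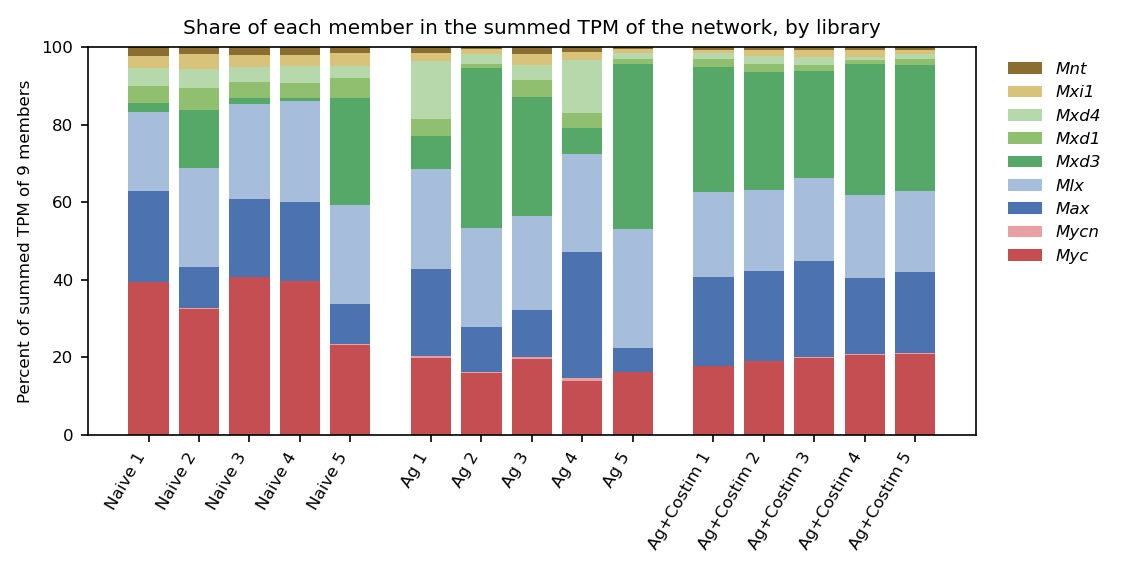
Stacked bars of the percent of the summed TPM of the 9 members (vertical axis, 0 to 100) that each member made up in each of 15 libraries (horizontal axis). The Myc segment is 23.3% to 40.7% in Naive and 17.8% to 20.9% in Ag+Costim, and the Mxd3 segment is 27.6% to 33.6% in Ag+Costim but between 6.69% and 42.4% in Ag.

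Transcripts of the members were compared as shares of each gene's counts. MAX is known in a short and a long form that differ by a small exon near the start of the protein. In the annotation, Max-202 (ENSMUST00000110395.10) has a 27-base exon that Max-201 (ENSMUST00000082136.6) lacks, and the first and last exons of the pair differ only in their outer ends. The exon is shown because it separates the 2 main Max transcripts, and the capitals are the exon itself, read on the minus strand of GRCm38.
Max-202, exon 2 of 5 (chr12:76961263-76961289, minus strand): GAAGAGCAACCGAGGTTTCAATCTGCG
The share of Max counts given to Max-202 was 0.467, 0.0182, 0.607, 0.499 and 0.337 in Naive 1 to 5. It was 0.368, 0.497, 0.0301, 0.544 and 0.116 in Ag 1 to 5. It was 0.233, 0.367, 0.795, 0.389 and 0.743 in Ag+Costim 1 to 5. The spread within each group was wider than any difference between group means, with shares of both main transcripts from under 0.25 to over 0.6 in Ag+Costim alone. A 27-base exon is shorter than the single reads of 50 bases in the core's table, and a share is StringTie's estimate.

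**Figure D5:**
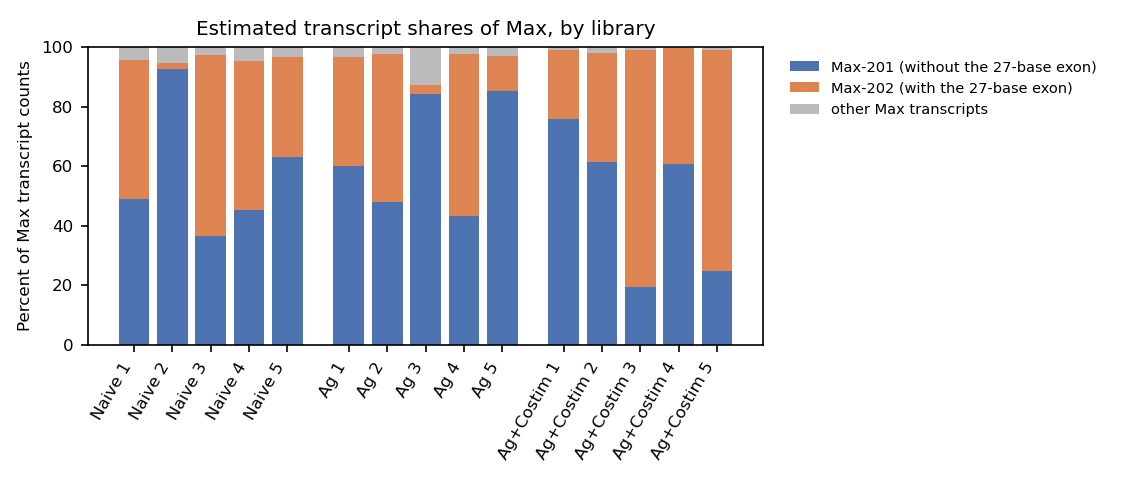
Stacked bars of the percent of Max transcript counts (vertical axis, 0 to 100) given to Max-201, Max-202 and the other annotated Max transcripts in each of 15 libraries (horizontal axis). The share of Max-202 runs from 23.3% to 79.5% within Ag+Costim and from 1.82% to 60.7% within Naive.

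Of the 6 members with at least 2 tested transcripts, 0 passed the test of transcript usage (edgeR's diffSpliceDGE) in Ag vs Naive, Ag+Costim vs Ag or Ag+Costim vs Naive, where 0.547%, 0.933% and 1.01% of 7501 genes were called. At an unadjusted gene-level p under 0.05 there were 0, 1 and 1, which was Max in both, and limma's diffSplice called 0 in each. For Max the gene-level FDR was 0.142 in the former comparison with Ag+Costim and 0.116 in the latter (edgeR), and the transcript with the lowest p was Max-203, a retained intron. Its counts were 12 to 28 in each Naive library, 4 to 15 with Ag and 0 to 6 with Ag+Costim. A retained-intron transcript of Mxd1, Mxd1-204, made up 0.137 to 0.282 of its counts in Naive and 0.0476 to 0.125 in Ag+Costim. One of Mxd4, Mxd4-204, made up 0.116 to 0.252 and 0.0380 to 0.0934. Both were picked out after their values were seen, and neither gene passed the test. The transcript given most of the Mxi1 counts differed between libraries of 1 group, with 0.925 to Mxi1-201 in Ag+Costim 2, 0.899 to Mxi1-202 in Ag+Costim 1 and 0.897 to Mxi1-203 in Ag+Costim 4. In Ag 1 the counts were split, with 0.443 to Mxi1-201 and 0.526 to Mxi1-203. Mnt-201 held 0.992 or more of Mnt counts and Mlx-201 0.890 or more of Mlx counts in every library.

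The genes whose log2(CPM + 1) was most like that of Myc over the 15 libraries, of 11324 genes with a mean of at least 5 CPM, were Mphosph10 (Pearson r = 0.96), Ppan (0.94), Atxn7l2 (0.94), Strn4 (0.93) and Snapc1 (0.93). Mphosph10 and Ppan encode nucleolar factors of ribosome assembly and are both in the list of 58 MYC targets described next. The genes most like Mxd1 were Tfdp2 (0.96), Secisbp2l (0.96) and Trove2 (0.94). Those most like Mxi1 were Nin, Nedd4l and Fam126b (0.96, 0.95 and 0.95), and those most like Mnt were Zhx3, Zyg11b and Zfyve16 (each 0.98). Among the members themselves, Mnt rose and fell across libraries with Mxd1 (0.87) and Mxi1 (0.86) and opposite to Mxd3 (-0.86), and Myc was opposite to Mxd3 (-0.73). Mnt was also opposite to the cycling genes (-0.83). These correlations over 15 libraries include the differences between groups.

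Around the network, 58 genes known as targets that MYC raises, mostly of ribosome assembly and nucleotide supply, were followed as a list, of which 57 were tested. This list and those after it were chosen with earlier results of these data known. In Ag vs Naive, where Myc was lower, 8 of the 57 fell and none rose by edgeR (3.66% and 3.05% of all genes). An unadjusted p under 0.05 was reached by 21, and by 4980 of all 17366 genes. DESeq2 called 14 lower and 1 higher, against 1507 lower and 1102 higher of 48768 over all genes, low-count genes included. The list had a median log2 fold change of -0.17 against 0.08 over all genes. Without Naive 5, 9 rose and 12 fell, against 2270 and 1601 of 17981 over all genes. Without Naive 1, 3 or 4, 2 fell, against 163, 174 and 170 over all genes. In Ag+Costim vs Ag none of the list passed the edgeR threshold, and 29 had an unadjusted p under 0.05, as did 4647 of all 17366 genes. DESeq2 called 20 higher and 0 lower, against 811 higher and 4743 lower of 48768 over all genes, low-count genes included. The edgeR median of the list was 0.46 against -0.10 over all genes. Of the list, edgeR called 24 higher without Ag 2 and 26 higher without Ag 5. Over all genes these fits called 965 higher and 1714 lower of 18092, and 756 higher and 2817 lower of 18108. Against Naive, in Ag+Costim 19 rose and 2 fell (21.0% and 23.6% of all genes), with a median of 0.35 against -0.08, in the comparison where Myc itself was lower. Without 1 library in turn, 6 to 23 rose and 0 to 5 fell, the fewest rises without Naive 1 or Naive 4. Over all genes 1447 rose without Naive 1 and 1413 without Naive 4, against 3648 with all libraries. The largest rise in the list was that of Tmem97, a sterol-responsive membrane protein (log2 fold change 2.05, SE 0.66, edgeR FDR 0.0250). The largest fall was that of Ppan (-0.50, SE 0.19, FDR 0.0468). By library, the median log2(CPM + 1) of the list was 5.84 to 6.08 in Naive and 5.95 to 6.26 in Ag+Costim. It was 5.39, 5.87, 5.59, 5.23 and 6.03 in Ag 1 to 5, lowest in Ag 1 and Ag 4.

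Other genes tied to growth and to MYC repression are given for Ag+Costim vs Naive, where 21.0% of all genes were called higher and 23.6% lower and the median over all genes was -0.08. Of 23 genes of growth (nutrient uptake, glycolysis, biosynthesis, the nucleolus and entry into the cell cycle), 9 rose and 2 fell (median log2 fold change 0.68). Mthfd2, the mitochondrial folate enzyme, rose most (1.55, SE 0.34, edgeR FDR 0.00663), and Ccnd2, which encodes cyclin D2, fell most (-1.18, SE 0.37, FDR 0.0230). Of 14 tested genes of the kind that MYC lowers, 9 fell and 3 rose (median -1.01). Tsc22d3, which encodes the glucocorticoid-induced factor GILZ, fell most (-3.46, SE 0.45, FDR 0.00100), and Cdkn2c, the cell cycle inhibitor p18, rose most (1.62, SE 0.47, FDR 0.0170). Of the 15 cycling genes 14 rose, with Ccnb1 at 2.39 (SE 0.87, FDR 0.0391), and 1 rose without Naive 1, 3 or 4 while all 15 rose without Naive 5. In the growth list 14 rose and 1 fell without Naive 5, and 2 rose and none fell without Naive 1 or Naive 4. Over all genes, 4604 rose and 4560 fell without Naive 5. Without Naive 1, 3 and 4 in turn, 1447, 1999 and 1413 rose and 2488, 3044 and 2479 fell.

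The machinery with which the members act had calls in both directions in Ag+Costim vs Naive, to be read against the same 21.0% higher and 23.6% lower over all genes. The shares of turnover genes that rose and of corepressors that fell were near these. Of 11 coactivators of MYC 5 rose and 4 fell in Ag+Costim vs Naive, with Ruvbl2, a chromatin-remodelling ATPase, at 1.07 (SE 0.30, edgeR FDR 0.0152) and the acetyltransferase Crebbp at -1.08 (SE 0.25, FDR 0.00792). Of 14 corepressors of MXD and MNT 6 rose and 3 fell, with Sap30 at 1.22 (SE 0.43, FDR 0.0332) and Arid4b at -1.31 (SE 0.35, FDR 0.0130), both of the SIN3 complex. Of 14 genes that control MYC turnover 4 rose and 5 fell, with the kinase Aurka at 2.23 (SE 0.80, FDR 0.0368) and the deubiquitinase Usp28 at -2.60 (SE 0.45, FDR 0.00278). Usp28 was already lower in Ag vs Naive (-1.97, SE 0.44, FDR 0.0210). Of the 6 tested relatives outside the 9 members, 4 fell and 0 rose, led by Mga, a large MAX partner (-1.32, SE 0.34, FDR 0.0120), and Mycl and Mlxipl did not pass the filter on low counts. Between Ag+Costim and Ag none of these lists had a call by edgeR, which called 6 of all 17366 genes there. At an unadjusted p under 0.05 there were 7 growth genes, 5 genes that MYC lowers, 6 coactivators, 3 corepressors, 5 turnover genes, 1 relative and 0 cycling genes. Over all genes 4647 of 17366 passed that limit. DESeq2 called 5 growth genes and 2 coactivators and 2 turnover genes higher and 1 growth gene and 2 genes that MYC lowers lower. It called 811 higher and 4743 lower of 48768 over all genes, low-count genes included. In Ag vs Naive edgeR called 2 genes that MYC lowers, 1 coactivator and 3 turnover genes lower (3.66% of all genes), and no gene of the growth, corepressor, relative or cycling lists. These lists had 5, 6, 4 and 0 genes at an unadjusted p under 0.05, which 4980 of all 17366 genes reached. DESeq2 called 2 growth genes higher and 2 relatives lower, against 1102 higher and 1507 lower of 48768 over all genes, low-count genes included. Without Naive 5 edgeR called 13 cycling genes and 6 growth genes higher, against 2270 of 17981 over all genes.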

How the data were processed

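RNA was sequenced from 15 libraries of OT-I CD8+ T cells, 5 in each of the Naive, Ag and Ag+Costim groups, which were taken from the sample labels. Per the labels and methods, full-length cDNA was made with a SMART-Seq v4 kit and libraries with Nextera XT, which do not mark strand. The authors aligned reads to mm10 with HISAT2 2.1.0 and SAMtools 1.9 and estimated transcripts with StringTie 2.1.0, and their notes also name DESeq2 1.30.1 and R 4.0.5. The deposited gene and transcript tables hold expected counts, estimated counts from StringTie written as whole numbers. The deposited FPKM table holds StringTie values per gene name, and its columns for Ag 1 and Naive 5 are identical, so that both were left out where FPKM served as an alternative. The shared column gave Mxd4 at 4.70 and Mxd3 at 45.6 FPKM. By counts, Mxd4 and Mxd3 were at 21.0 and 61.6 CPM in Naive 5 and at 107 and 20.4 CPM in Ag 1. Ag 4, with Mxd4 at 101 CPM, had it at 22.7 FPKM. The origin of the shared column was not tested. The deposited sequencing core table gives the count of reads per library and percentages, such as the percent of reads aligned. Read length is 50 bases in the core's table.

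Of 81881 gene entries, 55536 matched GENCODE genes on GRCm38, and the unmatched entries held 0.0818% of counts and were left out. Of 168207 transcript entries 141862 matched. The main test was edgeR 4.0.16 (R 4.3.3) with TMM scaling, its default filter on low counts (17366 genes kept), all 15 libraries in 1 quasi-likelihood fit (common coefficient of variation 0.431), and Benjamini-Hochberg adjustment over all genes tested, with an FDR threshold of 0.05. A usage call, from diffSpliceDGE over 25932 transcripts belonging to 7501 genes, also needed a share change of at least 0.1. Fold changes are log2, CPM values use library totals, and correlations use log2(CPM + 1). Intervals are 95%, and the 3-count limit for a count of 0 covers counting error only.

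Alternatives were DESeq2 1.42.0, limma 3.58.1 (voom with sample quality weights, diffSplice), other scalings, no filter, only the libraries compared, lane as a term or 1 lane, a block on the replicate number and each library left out. The tests were tried on simulated data. No 2 libraries agreed within sampling noise, and depth was 4865952 to 25280667 counts. The members and gene lists were chosen with earlier results of these data known. All 9 members are named, with the gene of each list that rose or fell most among those past the threshold in Ag+Costim vs Naive, and for the 5 members called there the genes most like each by Pearson correlation, 5 for Myc and 3 for the others.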

Additional observations from a re-analysis of the deposited data

Results flagged for a closer look

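In the 27 sets of 5 libraries formed by 9 members and 3 groups, the gap of the highest or lowest library to its neighbour, divided by the range of the group, exceeded Dixon's 95% critical value in 2 sets, and chance alone passes it in about 1 of 20 sets. Mycn was at 0.743 CPM in Naive 2, from 9 counts, against 0 to 0.198 CPM in the other Naive libraries, a gap of 0.734 of the range. Mlx was at 65.76 CPM in Ag 3 against 89.8 to 93.3 CPM in the other Ag libraries, a gap of 0.875 of the range. Ag 3 was the library with the fewest counts, and the part of its depth or of its erythroid transcripts in the Mlx value was not tested.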

How the results depend on the processing

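In Ag vs Naive the number of members called (1 as reported) was 4 with DESeq2, 6 with limma voom, 0 with the lane as a term, 0 with only the 10 libraries compared, 4 without both Ag 3 and Naive 5, and 1 to 3 when each library was left out in turn. In Ag+Costim vs Ag (0 as reported) it was 2 with DESeq2, 5 with limma voom, 1 (Mxd4) without both Ag 3 and Naive 5, and 0 to 2 with 1 library left out. In Ag+Costim vs Naive (5 as reported) it was 0 without the filter on low counts, 0 with the lane as a term, 9 with limma voom, 1 to 5 with 1 library left out (1 without Ag+Costim 4 or Naive 1), and 4 with library totals over all matched genes before TMM, an alternative chosen after seeing the data. Over all genes, DESeq2 called 2609, 5554 and 9350 of 48768, low-count genes included, in this order of comparisons, and limma voom 4020, 11195 and 13525 of 17366. The fit with the lane as a term called 0, 0 and 943 of 17366, and that without the filter 208, 3 and 4158 of 48994. In Ag vs Naive the fit of only the 10 libraries called 6 of 16742. The cause of the shifts in member counts was not tested, beyond the fewer libraries of some fits.

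The log2 fold change of Max in Ag vs Naive turned to -0.0135 without the filter, -0.19 with the lane as a term and -0.37 to 0.24 with 1 library left out. In Ag+Costim vs Ag, where none of them passed, that of Mxi1 turned to 0.16 without the filter, 0.10 without both Ag 3 and Naive 5 and -0.35 to 0.0779 with 1 library left out. That of Mnt turned to 0.26, 0.11 and -0.21 to 0.10 in the same order and to 0.0379 with library totals before TMM. That of Mlx turned to -0.0332 with library totals alone, -0.0080 without both libraries and -0.0327 to 0.17 with 1 left out. The median of the MYC target list was -0.53 in Ag vs Naive by limma voom. In Ag+Costim vs Ag it was 0.76 without the filter, 0.97 by limma voom and 0.37 to 0.70 with 1 library left out. With gene counts per kb of exon union in place of TPM, Myc made up 22.3% and the MXD and MNT sum 30.6% of the network in Ag+Costim. No member had a usage call under any alternative run.

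Replicate numbers are shared by the groups, but deviations of same-numbered libraries correlated at only -0.344 to 0.568, not above 0.1 for every number, and not every library correlated best with its own number, so the numbers were not taken as pairs. With a block on the replicate number 2 members were called in Ag vs Naive (Mnt joined Myc), 0 between the transferred groups and 5 in Ag+Costim vs Naive, where Max joined and Myc was lost, and the log2 fold changes of Max (Ag vs Naive) and of Mnt (Ag+Costim vs Ag) turned to -0.0252 and 0.0421. Of the member fold changes, 230 kept their direction and side of the threshold with 1 library left out, 9 newly passed, 21 no longer passed and 10 reversed. Under the other alternatives 229 kept them, 30 newly passed, 16 no longer passed and 11 reversed. Depth limits Mycn most, with at most 51 counts in a library.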
